A study of Mus musculus with 14 samples.

Results

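The early mesoderm genes followed here were Mixl1, Eomes, Mesp1, Evx1, Msgn1, Tbx6, Foxf1, Pdgfra and Meox1. They were chosen by symbol, and every probe set assigned to one of these symbols was taken, which gave 9 genes with 13 probe sets. The arrays hold 45101 probe sets, of which 34958 with a single gene symbol stand for 18194 genes. The RNA came from embryoid bodies (EB), clumps of differentiating stem cells that form tissues of several germ layers in culture, and from the mouse embryonic stem cells (ESC) they are grown from, and it was hybridised to Affymetrix microarrays. The genotypes were wild type (WT) and TKO, which the labels do not spell out. From the title of the series it was taken to mean cells in which all 3 genes of the Rb family (Rb1, Rbl1, Rbl2) are knocked out. There were 5 arrays of TKO EB (lines 2-55-2, 14-14-4, 7-4-1, Dutch and Ta1-12), 3 of WT EB (B21, J1 and R1), 3 of TKO ESC (7-4-1, Dutch and Ta1-12) and 3 of WT ESC (B21, J1 and R1). Intensities below are given in this order of lines. Each array was a different line within its group, the series text calls them biological replicates, and neither the time of EB culture nor a treatment is given in the sources used here.

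Rbl1 intensity was 1096 in the EB and 492.5 in the ESC of the line labelled TKO Ta1-12, against 355.6 to 1090 on the 6 WT arrays, and 15.9 to 377.1 on the other TKO arrays. TKO EB Dutch, at 377.1, also lay within the WT range, and TKO ESC Dutch had 250.3. Rb1 had 115.9 to 912.8 on the 8 TKO arrays and 138 to 1018 on the WT arrays, and Rbl2 had 296.8 to 1099 on the TKO arrays and 411.1 to 1727 on the WT arrays, so neither separated the genotypes. Where these probes lie on each gene was not analysed here, and a probe that misses the deletion checks nothing. The EB of TKO lines also differed in how much of the stem cell program they kept. Pou5f1, a core pluripotency factor, had 1542, 6133, 146.8, 7410 and 17.1 in TKO EB, against 38.8, 32.8 and 55.2 in WT EB, and 9880 to 12950 on the 6 ESC arrays. The array medians lay between 83.2 and 107.9.

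In the mouse embryo, mesoderm arises when cells of the epiblast pass through the primitive streak. Nodal and Wnt signals there switch on the T-box factor Eomes, the homeobox factors Mixl1 and Evx1 and the basic helix-loop-helix factor Mesp1, which marks the first mesoderm, including the heart's precursors. These genes are expressed briefly. Msgn1 and Tbx6 then mark presomitic mesoderm and Meox1 the somites, the blocks that give vertebrae and trunk muscle, while Foxf1 marks lateral and splanchnic mesoderm under Hedgehog control. Pdgfra encodes a receptor for platelet-derived growth factors that is present on early and paraxial mesoderm and stays on in mesenchyme and fibroblasts, and it is also a marker of primitive endoderm.

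The promoters of 6 of the 9 genes (Eomes, Mesp1, Evx1, Msgn1, Tbx6 and Pdgfra) were matched in a RefSeq table of build GRCm38.p6 that gives 250 bases before and 50 bases after each start site. The windows of Mesp1 and Msgn1 are shown because the letters ATCAAAG, the core bound by the Wnt effectors TCF and LEF, occur in them. That of Pdgfra is shown because it belongs to 1 of the 2 genes that changed in these data. Mesp1 lies at chr7:79793541-79793840 on the minus strand, Msgn1 at chr12:11208899-11209198 on the minus strand and Pdgfra at chr5:75152001-75152300 on the plus strand. Capitals mark the matches described after the sequences, and each sequence is printed 5′ to 3′ in the direction of its gene.
Mesp1: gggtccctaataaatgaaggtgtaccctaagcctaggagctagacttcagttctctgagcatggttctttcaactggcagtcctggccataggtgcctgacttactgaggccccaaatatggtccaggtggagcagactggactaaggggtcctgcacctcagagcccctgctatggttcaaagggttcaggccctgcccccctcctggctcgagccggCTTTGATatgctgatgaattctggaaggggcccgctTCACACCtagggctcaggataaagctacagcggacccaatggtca
Msgn1: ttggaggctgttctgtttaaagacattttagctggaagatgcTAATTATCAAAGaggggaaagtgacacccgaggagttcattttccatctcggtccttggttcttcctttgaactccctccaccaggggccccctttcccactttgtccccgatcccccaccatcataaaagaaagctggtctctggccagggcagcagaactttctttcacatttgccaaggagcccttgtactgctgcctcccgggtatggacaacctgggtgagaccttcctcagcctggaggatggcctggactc
Pdgfra: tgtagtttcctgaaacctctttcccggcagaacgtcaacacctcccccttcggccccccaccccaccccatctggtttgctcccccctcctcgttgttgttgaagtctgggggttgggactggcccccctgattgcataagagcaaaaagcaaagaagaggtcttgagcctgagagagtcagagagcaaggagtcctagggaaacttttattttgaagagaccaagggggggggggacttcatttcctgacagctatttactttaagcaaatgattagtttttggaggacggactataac
The motifs were searched on both strands and were chosen after the sequences were seen. ATCAAAG was found in 2 of the 6 windows and in 3.73% of 32851 promoters of 300 bases. It started 31 bases before the start site of Mesp1, as its complement CTTTGAT, and 203 bases before that of Msgn1. TCACACC, the T-box half-site, was found in Mesp1 alone of the 6, at position 5 after the start, and in 3.98% of all promoters. TAATTA, a homeodomain core, was found in Msgn1 and Tbx6 and in 5.29% of all promoters, and in Msgn1 it shares 1 base with the ATCAAAG match. AGATAA, the core read by Gata factors, was in none of the 6 and in 11.2% of all. The window of Pdgfra held none of these 4 strings of letters. A match describes the letters only.

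Foxf1 and Pdgfra were far higher in EB than in ESC in both genotypes, and none of the other members passed the test in any comparison. A gene was tested where its intensity lay above the array's 40th percentile (51.3 to 64.4) on at least 3 arrays, which 8 of the 9 members and 14365 genes in all did. Values under an intensity of 32 were raised to 32, and the test was limma's on log2 intensity with Benjamini-Hochberg adjustment over all 14365 genes and a threshold of 0.05. Foxf1 and Meox1 lay above the 40th percentile on EB arrays alone, so they entered the test only through EB. Genes of the other lists below, and of the background, could enter in the same way, which favours a rise in EB. Without the filter Foxf1 still passed in both stage comparisons (limma adjusted p = 0.00695 in TKO and 0.0035 in WT). In TKO EB versus TKO ESC, 2 of 8 tested members were higher and 0 lower, beside 20.8% of all genes higher and 14.9% lower. In WT EB versus WT ESC, 2 of 8 were again higher and 0 lower, beside 26.2% of all genes higher and 17.4% lower. These shares are close to the background of genes that changed with the stage. The median change of the 8 members was -0.06 in TKO and -0.14 in WT cells, beside 0.08 and 0.13 over all genes. In bulk samples, fewer cells of a type and less RNA per cell cannot be told apart.

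**Figure D1:**
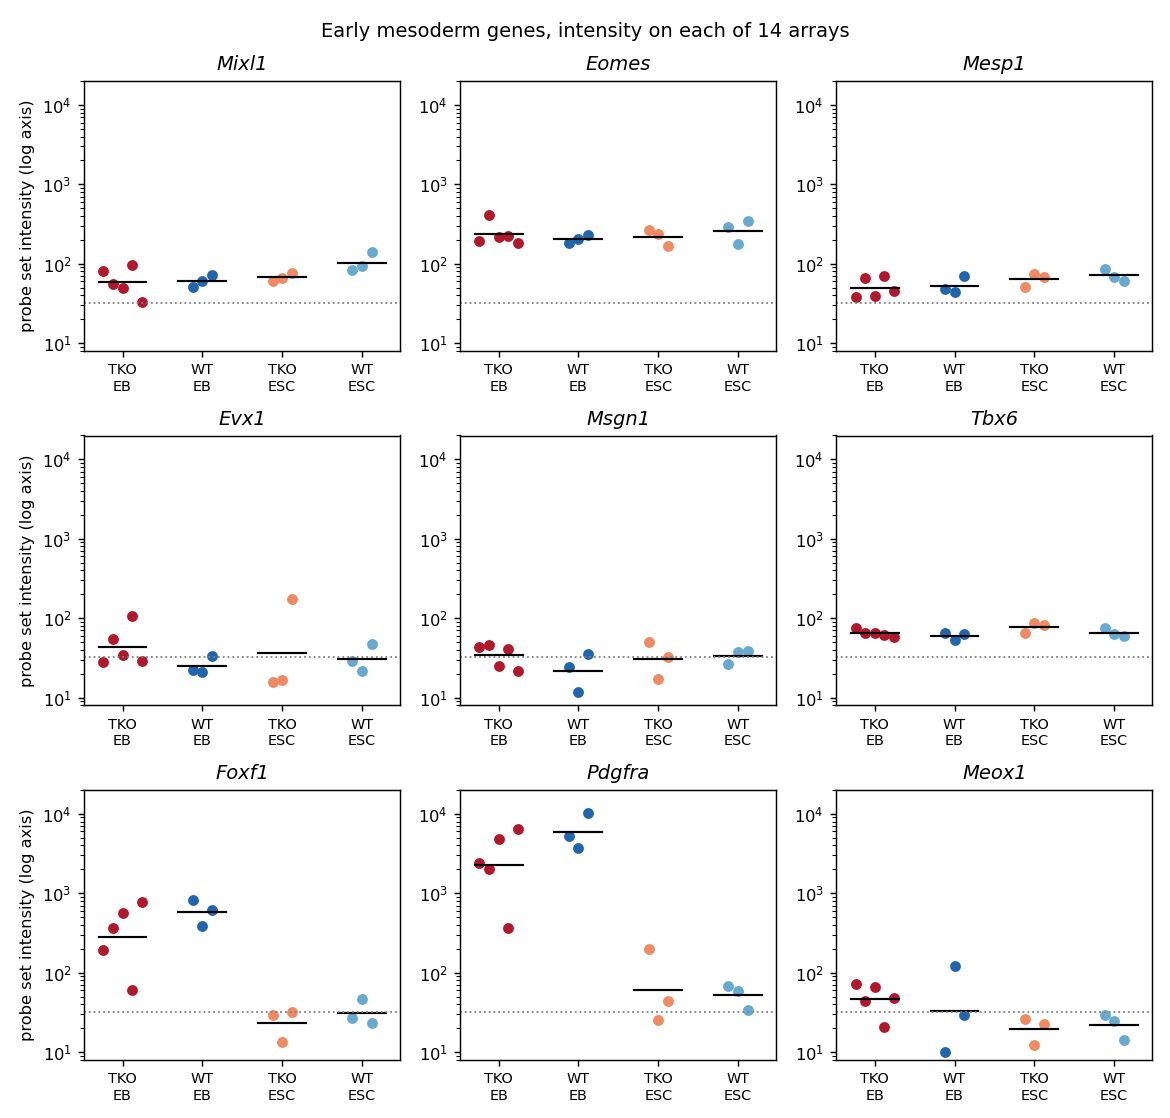
Intensity of each early mesoderm gene (log axis, 1 panel per gene, the probe set with the highest mean log2 intensity) on 5 TKO EB, 3 WT EB, 3 TKO ESC and 3 WT ESC arrays. Points are arrays, bars are geometric means and the dotted line is the intensity of 32 to which lower values were raised; Foxf1 and Pdgfra lie higher in EB than in ESC, and the other 7 genes overlap between stages in TKO cells.

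Eomes, the T-box factor that starts mesoderm and endoderm formation in the streak, had an intensity of 195.6, 405.6, 218.5, 222.3 and 181.4 in TKO EB and 182.4, 202.7 and 231.2 in WT EB by probe set 1435172_at. The ESC gave 268.9, 234.7 and 166.2 in TKO and 287.0, 176.6 and 349.4 in WT. The TKO EB of line 14-14-4 was the highest of all, and the groups overlapped throughout. Its change was 0.10 ± 0.30 on the log2 scale (SE, adjusted p = 0.823) in TKO EB versus TKO ESC (n = 5 and 3), a sign that turned under several other settings. It was -0.35 ± 0.33 (adjusted p = 0.404) in WT EB versus WT ESC (n = 3 and 3).

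The second Eomes probe set, 1426001_at, separated the arrays differently. It read 161.8, 234.5, 89.0, 286.8 and 62.1 in TKO EB and 64.7, 90.7 and 89.5 in WT EB. In ESC it read 167.8, 224.7 and 162.9 in TKO and 154.8, 227.9 and 284.9 in WT. All WT EB values lay below all WT ESC values, while the TKO EB spanned both, with the lines Dutch and 14-14-4, those with the highest Pou5f1, at the top. When each probe set was fitted on its own, an alternative added after the values were seen, this probe set had -1.42 ± 0.51 (adjusted p = 0.0656) in WT EB versus WT ESC. In TKO EB versus TKO ESC it had -0.36 ± 0.46 (adjusted p = 0.682). The 2 Eomes probe sets correlated at 0.481 over the 14 arrays, so they disagree on this gene.

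Mixl1, a homeobox factor of the streak, had 80.1, 56.0, 49.5, 96.2 and 33.0 in TKO EB and 51.4, 60.3 and 72.7 in WT EB. It had 61.3, 66.9 and 76.7 in TKO ESC and 82.3, 93.6 and 141.2 in WT ESC. WT ESC were thus the highest group, with every array above both WT EB and TKO ESC, while TKO EB reached into each range. The change was -0.76 ± 0.36 (adjusted p = 0.0998) in WT EB versus WT ESC and -0.21 ± 0.32 (adjusted p = 0.633) in TKO EB versus TKO ESC. By the probe set that stood for each gene in the test, Mixl1 was the 1 member of 8 whose WT EB arrays lay entirely below WT ESC, as did 25.3% of all genes. With values raised to 64 instead of 32, and with arrays weighted by their noise, the WT change passed the test (-0.62, adjusted p = 0.0274, and -0.75, adjusted p = 0.0216). The floor of 64 set WT EB B21 and J1 to the same value, which removed spread between them. The weight of WT ESC J1 was 7.58, against 0.607 for B21 and 1.57 for R1, so the weighted WT ESC mean leans on J1.

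Mesp1, which drives the earliest cardiac and cranial mesoderm, had 38.3, 65.8, 38.6, 70.8 and 45.7 in TKO EB and 47.7, 44.5 and 69.5 in WT EB. It had 50.2, 74.1 and 68.3 in TKO ESC and 86.9, 68.5 and 61.3 in WT ESC. These values straddle the 40th percentile of the arrays in each group but WT ESC, where all 3 lay above it. The groups overlapped, and the change was -0.34 ± 0.27 (adjusted p = 0.339) in TKO EB versus TKO ESC and -0.43 ± 0.30 (adjusted p = 0.25) in WT EB versus WT ESC.

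Evx1, a homeobox factor of the posterior streak, had 27.8, 54.2, 34.5, 107.1 and 29.3 in TKO EB and 22.4, 20.9 and 33.4 in WT EB. It had 15.7, 16.8 and 175.8 in TKO ESC and 29.0, 21.4 and 46.8 in WT ESC. The ESC of the line labelled TKO Ta1-12 held the highest value and the EB of line Dutch the next, and most other arrays lay near or under the floor of 32. The change was -0.30 ± 0.54 (adjusted p = 0.694) in TKO EB versus TKO ESC, and it was 0.52 without TKO ESC Ta1-12. In WT EB versus WT ESC it was -0.16 ± 0.60 (adjusted p = 0.841). This SE uses the spread shared by all groups. The log2 SD was 0.03 in WT EB and 0.32 in WT ESC, but 0.75 in TKO EB and 1.42 in TKO ESC.

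Msgn1, the presomitic factor, was the member that failed the filter, with 0 of 14 arrays above the 40th percentile. It had 43.3, 46.2, 25.1, 41.3 and 21.6 in TKO EB and 24.1, 11.6 and 35.8 in WT EB. It had 49.5, 17.2 and 32.3 in TKO ESC and 26.5, 37.0 and 38.4 in WT ESC. No group stood apart, and without the filter its changes were 0.05 in TKO and -0.10 in WT cells.

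Tbx6, the T-box factor that turns cells from a neural to a paraxial mesoderm fate, had 75.6, 64.9, 65.5, 60.8 and 58.1 in TKO EB and 64.7, 53.2 and 64.1 in WT EB. It had 65.7, 87.4 and 82.0 in TKO ESC and 74.7, 62.3 and 59.8 in WT ESC. Tbx6 was the steadiest member, with all 14 arrays between 53.2 and 87.4, close to the filter. The change was -0.27 ± 0.17 (adjusted p = 0.253) in TKO EB versus TKO ESC and -0.11 ± 0.19 (adjusted p = 0.657) in WT EB versus WT ESC.

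Meox1, the somite homeobox gene, had 72.9, 44.1, 66.9, 20.7 and 47.3 in TKO EB and 10.1, 122.8 and 28.9 in WT EB. All 3 TKO ESC (25.7, 12.4 and 22.9) and all 3 WT ESC (29.5, 24.3 and 14.4) lay under the floor of 32. Most TKO EB and WT EB J1 thus lay above every ESC array, but TKO EB Dutch and the WT EB of B21 and R1 did not. The change was 0.66 ± 0.40 (adjusted p = 0.223) in TKO EB versus TKO ESC and 0.65 ± 0.45 (adjusted p = 0.257) in WT EB versus WT ESC. In WT cells the change rests on J1, and without WT EB J1 it was 0. The floor hides differences below 32, such as the 10.1 in WT EB B21 beside 29.5 in its ESC.

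Foxf1, the forkhead factor of lateral and splanchnic mesoderm, had 195.5, 363.7, 557.9, 59.9 and 771.9 in TKO EB and 821.6, 384.5 and 622.4 in WT EB by probe set 1434939_at. It had 29.0, 13.5 and 31.7 in TKO ESC and 26.5, 47.0 and 23.4 in WT ESC. Every EB array lay above every ESC array, but TKO EB Dutch, at 59.9, lay closer to the ESC than to any other EB. Foxf1 was 3.15 ± 0.64 higher on the log2 scale in TKO EB than in TKO ESC (8.86-fold, adjusted p = 0.00273). It was 4.00 ± 0.71 higher in WT EB than in WT ESC (16-fold, adjusted p = 0.00121). Because 3 of 3 TKO ESC and 2 of 3 WT ESC lay under the floor, both folds are understated.

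The second Foxf1 probe set, 1423013_at, had a narrower range. It read 142.3, 153.2, 172.3, 86.8 and 159.7 in TKO EB and 178.8, 125.4 and 175.7 in WT EB. It read 99.9, 83.4 and 98.9 in TKO ESC and 73.2, 97.8 and 75.8 in WT ESC. TKO EB Dutch fell within the ESC range, and the other EB arrays lay above it. Fitted on its own, the probe set changed by 0.95 ± 0.25 (adjusted p = 0.0196) in WT EB versus WT ESC, and it did not pass in TKO EB versus TKO ESC (0.57 ± 0.23, adjusted p = 0.102). Over the 14 arrays it correlated with the first probe set at 0.942.

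Pdgfra, the receptor that binds PDGF ligands, had the widest range of the members. Probe set 1421917_at gave 2383, 2036, 4886, 370.0 and 6517 in TKO EB and 5302, 3742 and 10130 in WT EB. It gave 200.7, 25.3 and 43.9 in TKO ESC and 68.8, 59.0 and 33.9 in WT ESC. The EB and ESC arrays did not overlap, TKO EB Dutch was the lowest EB and TKO ESC 7-4-1 the highest ESC. Pdgfra was 5.10 ± 0.83 higher on the log2 scale in TKO EB than in TKO ESC (34.3-fold, adjusted p = 0.000761). It was 6.83 ± 0.93 higher in WT EB than in WT ESC (113-fold, adjusted p = 0.000304).

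The TKO fold of Pdgfra depended on single arrays. Without TKO ESC 7-4-1 the change was 5.91, without TKO EB Dutch it was 5.75 and without the line labelled TKO Ta1-12 at both stages it was 4.43, and each passed the test. Foxf1 was 2.79 higher without that line and also passed (adjusted p = 0.0197). The arrays of line Dutch, whose EB also had Rbl1 in the WT range, stayed in that fit.

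The other Pdgfra probe sets had smaller changes of the same sign. Probe set 1421916_at gave 568.2, 564.6, 905.8, 78.7 and 1316 in TKO EB and 969.4, 628.7 and 4223 in WT EB, against 19.2 to 68.4 in TKO ESC and 23.0 to 36.1 in WT ESC. It was higher by 3.59 ± 0.86 (adjusted p = 0.0133) in TKO EB and by 5.32 ± 0.96 (adjusted p = 0.00367) in WT EB, each against its ESC. Probe set 1438946_at gave 185.7, 255.8, 316.3, 241.7 and 551.9 in TKO EB and 316.0, 317.9 and 1547 in WT EB, against 151.9 to 172.3 in TKO ESC and 155.0 to 160.9 in WT ESC. It passed in WT EB versus WT ESC (1.76 ± 0.55, adjusted p = 0.0386) and did not in TKO EB versus TKO ESC (0.86 ± 0.49, adjusted p = 0.259). On all 3 probe sets WT EB R1 was the highest array.

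Of the members tested, 2 lay higher without overlap in TKO EB than in TKO ESC, as did 22% of all genes tested, and 2 in WT EB than in WT ESC, as did 35.4% of all genes. These were Foxf1 and Pdgfra each time, and Foxf1 had passed the filter through EB arrays alone.

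**Figure D2:**
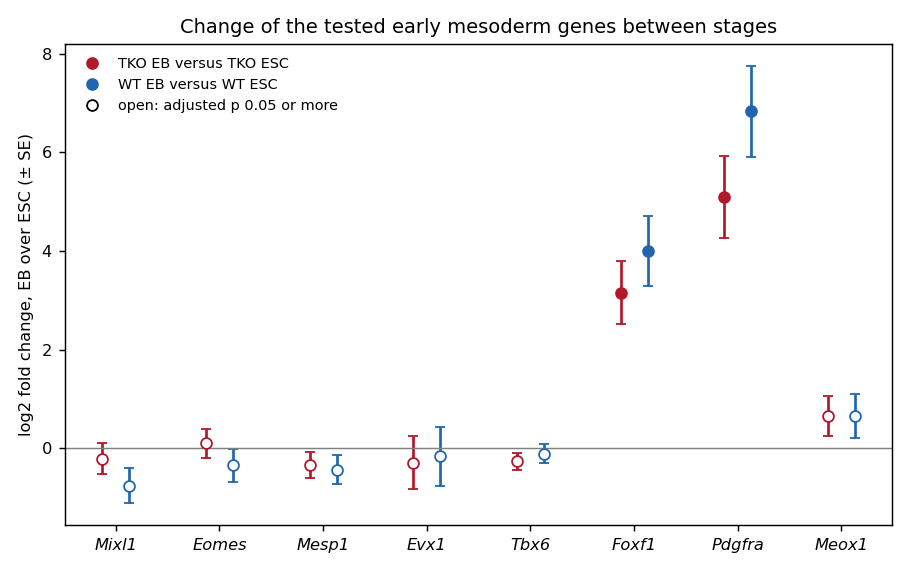
Log2 fold change (± SE) of the 8 tested early mesoderm genes, for TKO EB versus TKO ESC (red, 5 and 3 arrays) and WT EB versus WT ESC (blue, 3 and 3 arrays). Filled points passed the adjusted p of 0.05; Foxf1 and Pdgfra lie at 3.15 to 6.83 and the other 6 genes within 0.76 of 0.

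Lines measured at both stages give the change within a line, where a fold over an ESC value raised to the floor of 32 is a lower bound and is written "at least". Pdgfra by probe set 1421917_at was 24.3-fold higher in the EB than in the ESC of TKO line 7-4-1, at least 11.6-fold in Dutch and 149-fold in the line labelled TKO Ta1-12. It was 77.1-fold, 63.4-fold and 299-fold higher in the WT lines B21, J1 and R1. Foxf1 by probe set 1434939_at was at least 17.4-fold higher in 7-4-1, at least 1.87-fold in Dutch and at least 24.1-fold in Ta1-12. It was at least 25.7-fold higher in B21, 8.17-fold in J1 and at least 19.4-fold in R1. All 6 lines moved up for both genes. Mixl1 was lower in the EB than in the ESC of all 3 WT lines, with log2 changes of -0.68, -0.63 and -0.96, and its TKO lines moved both ways, with -0.31 in 7-4-1, 0.52 in Dutch and -1.22 in Ta1-12.

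Between genotypes, none of the 8 tested members passed the test at either stage. In TKO EB versus WT EB 0% of genes passed over the whole table, while 14.2% had an unadjusted p under 0.05 in limma, and array weights called 8 genes. Pdgfra had an average intensity of 3238 ± 2443 in TKO EB and 6390 ± 3328 in WT EB (SD, n = 5 and 3). Its log2 change was -1.38 ± 0.83 (SE, adjusted p = 0.442). Without TKO EB Dutch the Pdgfra change was -0.73, and without the line labelled TKO Ta1-12 it was -1.77 (adjusted p = 0.211). Foxf1 averaged 389.8 ± 283.5 in TKO EB and 609.5 ± 218.8 in WT EB, with -1.04 ± 0.64 (adjusted p = 0.451). The Foxf1 change was -0.48 without TKO EB Dutch and -1.40 without the line labelled TKO Ta1-12 (adjusted p = 0.186). Mixl1 had -0.05 ± 0.32 (adjusted p = 0.952), which became 0.04 after quantile normalization. Of the other tested members, Evx1 had 0.50 ± 0.54 (adjusted p = 0.669), Eomes 0.19 ± 0.30 (adjusted p = 0.77) and Tbx6 0.10 ± 0.17 (adjusted p = 0.802). Meox1 had 0.01 ± 0.40 (adjusted p = 0.994) and Mesp1 -0.08 ± 0.27 (adjusted p = 0.902). Fitted on its own, Eomes probe set 1426001_at had 0.83 ± 0.46 (adjusted p = 0.564). None of the 8 tested members separated the 2 groups without overlap, beside 3.95% of all genes tested. Without the line labelled TKO Ta1-12, 1101 genes passed in this comparison, 0 of them members.

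In TKO ESC versus WT ESC again 0% of genes passed (2.74% at an unadjusted p under 0.05, and 697 genes with array weights, with 0 members in each setting). Mixl1 had -0.60 ± 0.36 (adjusted p = 1), and it was the tested member that lay lower in TKO ESC on every array, as did 7.33% of all genes. Pdgfra had 0.34 ± 0.93 (adjusted p = 1), a sign that rests on TKO ESC 7-4-1, without which it was -0.46. Foxf1 had -0.19 ± 0.71 (adjusted p = 1), with 5 of the 6 arrays under the floor.

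The change from ESC to EB was compared between TKO and WT directly, and 0% of all genes and none of the 8 members passed (3.63% at an unadjusted p under 0.05, and 4 genes with array weights). Pdgfra had a difference of -1.73 ± 1.24 on the log2 scale (adjusted p = 0.975). Over the alternatives run it lay between -2.40 and -0.81, the latter without TKO EB Dutch and 14-14-4. Foxf1 had -0.85 ± 0.96 and Mixl1 0.55 ± 0.48 (adjusted p = 0.975 for both). A p above the threshold does not show that the genotypes were alike.

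The TKO EB differed among themselves. TKO EB Dutch was the lowest EB array for Foxf1 by both probe sets and for Pdgfra by 2 of 3 (by 1438946_at it had 241.7, above the 185.7 of TKO EB 2-55-2), and the highest TKO EB array for Mixl1, for Evx1 and for Eomes by probe set 1426001_at. The same array had the highest summed intensity of 12 pluripotency markers among EB (83641, against 10136 to 65622 in the other TKO EB and 5611 to 12060 in WT EB). It also had the lowest sum of 12 fibroblast markers (28909, against 56690 to 113371 in the other TKO EB and 86146 to 106992 in WT EB), all 12 of which lay above the 40th percentile on every EB array. The part of undifferentiated cells and of fibroblast-like cells in the values of Foxf1 and Pdgfra was not tested.

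**Figure D3:**
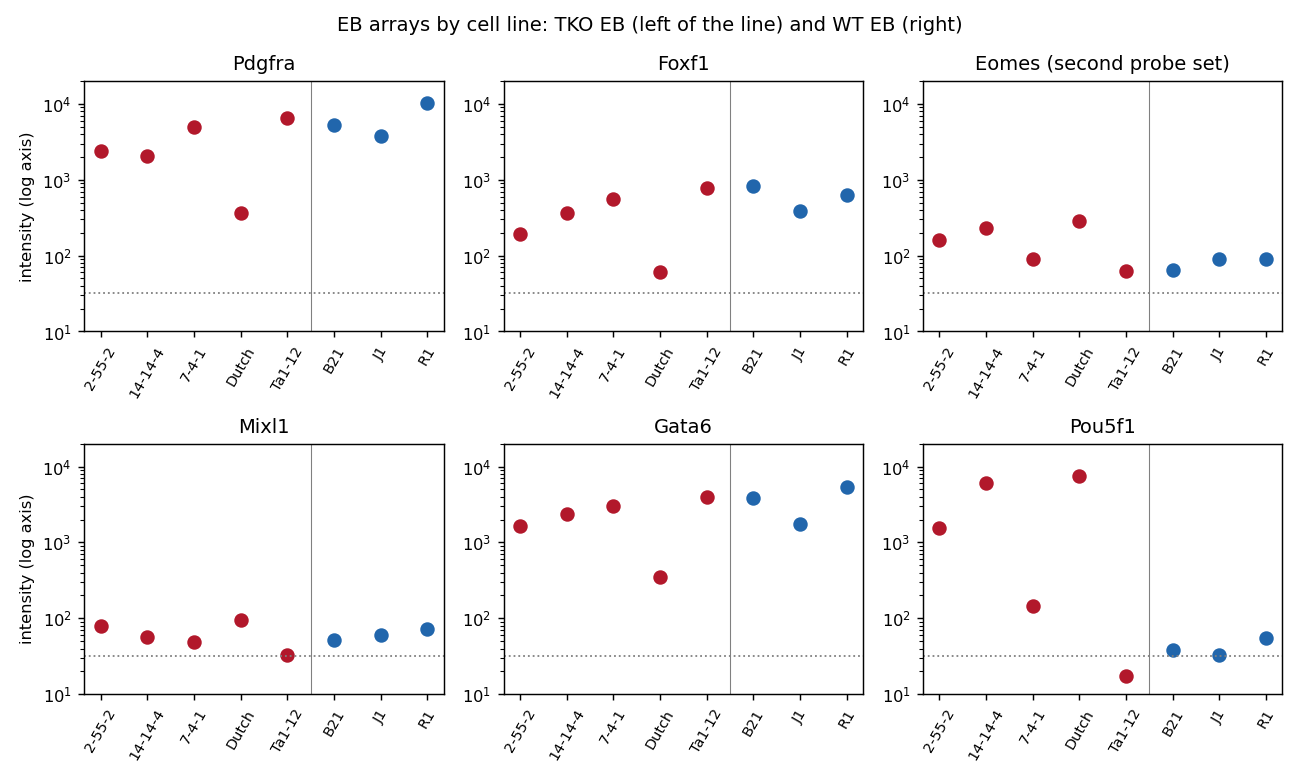
Intensity (log axis) of Pdgfra, Foxf1, Eomes by its second probe set and Mixl1, with Gata6 and Pou5f1 for comparison, on the 5 TKO EB (red) and 3 WT EB (blue) arrays by cell line, with the floor of 32 dotted. TKO EB Dutch is lowest for Pdgfra (370.0) and Foxf1 (59.9) and highest for Pou5f1 (7410).

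Pdgfra is also a marker of primitive endoderm, and most markers of that layer were higher in EB too. Gata6, its transcription factor, had 1652, 2379, 3036, 349.5 and 4006 in TKO EB and 3823, 1766 and 5417 in WT EB. In ESC it had 187.3, 47.4 and 37.5 in TKO and 49.7, 71.0 and 43.3 in WT. The order of the arrays resembles that of Pdgfra by probe set 1421917_at, with TKO ESC 7-4-1 the highest ESC, TKO EB Dutch the lowest EB and WT EB R1 the highest EB. The summed intensity of 11 primitive endoderm markers was 9243 in TKO ESC 7-4-1, against 2584 to 3019 on the other 5 ESC arrays. It was 23757 to 86129 in TKO EB and 30795 to 106721 in WT EB, with R1 at the top. The sum did not follow Pdgfra throughout the TKO EB. It was 23757 in 7-4-1 and 23889 in Dutch, where Pdgfra had 4886 and 370.0. On each EB array 10 or 11 of the 11 markers, of which Gata4 is on the lateral mesoderm list too, lay above the 40th percentile. Of the 11 markers 8 passed as higher in TKO EB and 9 in WT EB, each against its ESC, beside 20.8% and 26.2% of all genes. The part of these markers in the level of Pdgfra was not tested.

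Likeness to other genes was described by Pearson's r of log2 intensity over the 14 arrays, which fall into 2 stages, so that any gene that differs between ESC and EB scores high. Pdgfra was most like Gata6 (0.993), the copper transporter Atp7a (0.99) and the chemokine receptor Ackr3 (0.989). Foxf1 was most like the kinase Lats1 (0.986), Cnpy2 (0.982) and Pofut1 (0.982), and Meox1 was most like the muscle factor Myf5 (0.925). Meox1 had 9 of 14 arrays under the floor, so few arrays set its profile. Foxf1 and Pdgfra correlated at 0.961 with each other and at -0.682 and -0.649 with Mixl1. Over the 8 EB arrays alone, Pdgfra was most like Cdk13 (0.995), the collagen chaperone Serpinh1 (0.985) and Pofut1 (0.983). For Evx1 the nearest genes over the 14 arrays reached 0.791, 0.787 and 0.76, on a profile set by few arrays above the floor.

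Genes of the signals that induce mesoderm in the streak changed in both directions. In TKO EB versus TKO ESC, 3 of 17 tested genes of this list rose and 3 fell, near the 20.8% of all genes higher and 14.9% lower. The median was 0.48 beside 0.08 over all genes. In WT EB versus WT ESC 3 rose and 7 fell, beside 26.2% of all genes higher and 17.4% lower. The median there was -0.76 beside 0.13. Tdgf1 and Fgf4 stand on the pluripotency list too, and Bmp4 on the lateral list. On the ESC arrays Nodal already had 1616 to 2542 and Tdgf1 9346 to 14240. Foxh1, a DNA-binding partner of Nodal signalling, fell in both (-2.21 ± 0.64 in TKO, adjusted p = 0.017, and -3.97 ± 0.71 in WT, adjusted p = 0.00126). Nodal itself fell in WT EB (-5.92 ± 1.17, adjusted p = 0.00208), as did its antagonist Lefty1 (-4.15 ± 0.86, adjusted p = 0.0027). Foxa2, a forkhead factor of the anterior streak and endoderm, rose by 3.64 ± 0.72 in TKO EB and by 4.79 ± 0.81 in WT EB, and in TKO EB the repressor of epithelial genes Snai1 rose by 2.59 ± 0.66 and the node gene Lhx1 by 1.23 ± 0.40.

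Paraxial mesoderm genes moved both ways. Of 15 tested, 5 rose and 2 fell in TKO EB versus TKO ESC (median 0.71), beside 20.8% of all genes higher and 14.9% lower. In WT EB versus WT ESC 7 rose and 3 fell (median 0.65), beside 26.2% higher and 17.4% lower. The forkhead gene Foxc1, used in somites and in many mesenchymal tissues, rose by 3.82 ± 0.56 in TKO and by 3.98 ± 0.62 in WT EB, and the sclerotome gene Pax9 rose by 1.16 ± 0.25 and 1.76 ± 0.28. Cyp26a1, which breaks down retinoic acid, rose by 3.11 ± 0.81 in TKO EB, and Foxc2 by 3.52 ± 0.82 in WT EB. Tcf15, a somite factor that ESC express too, fell (-3.39 ± 0.49 in TKO and -4.30 ± 0.55 in WT).

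Lateral mesoderm genes, the group Foxf1 belongs to, mostly rose. Of 19 tested, 12 rose and 1 fell in each genotype, with medians of 1.84 in TKO and 2.39 in WT cells. Of all genes 20.8% rose in TKO and 26.2% in WT cells. Hand2, a factor of heart and limb mesoderm, had 1516, 2228, 3506, 611.9 and 1958 in TKO EB and 3876, 2175 and 1909 in WT EB, against 46.2 to 75.6 on the 6 ESC arrays. It rose by 4.77 ± 0.44 in TKO and by 5.42 ± 0.50 in WT EB. Tbx20, a T-box factor of the heart, rose by 3.66 ± 0.42 and 3.64 ± 0.47, and Isl1, a factor of cardiac and limb progenitors, by 4.22 ± 0.53 and 4.83 ± 0.60. Tcf21, of epicardium and visceral mesenchyme, rose by 5.71 ± 0.84 in WT EB. Gli1, a target of Hedgehog signalling, fell in TKO EB (-1.98 ± 0.29). In WT cells Gli1 had 80.9, 129.5 and 113.7 in EB, also below the 237.1, 289.7 and 191.2 in ESC. A gene of these lists given for 1 genotype only was among the 4 with the smallest adjusted p there. That does not mean it was unchanged in the other genotype.

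Among the partners of Pdgfra, 3 of 6 tested genes of the PDGF pathway rose in TKO EB versus TKO ESC, beside 20.8% of all genes. In WT EB versus WT ESC 4 rose, beside 26.2% of all genes, and 0 fell in either. The co-receptor Nrp1 rose by 6.81 ± 0.33 and 7.14 ± 0.37, the ligand Pdgfc by 2.98 ± 0.52 and 3.58 ± 0.58 and the second receptor Pdgfrb by 3.30 ± 0.45 and 3.05 ± 0.50, in TKO and WT cells. The receptor-like gene Pdgfrl rose in WT EB (2.37 ± 0.82, adjusted p = 0.0329) and had 1.74 ± 0.73 in TKO EB (adjusted p = 0.0801).

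Relatives of the members by family were other T-box genes with Evx2, Meox2 and Foxf2. Of 10 tested, 0 fell in either stage comparison. In TKO EB 4 rose and in WT EB 6, each against its ESC, beside 20.8% and 26.2% of all genes. Tbx20 led both, Tbx1 rose by 1.99 ± 0.63 and 3.15 ± 0.70, and Foxf2, the paralogue of Foxf1, by 0.57 ± 0.21 and 1.38 ± 0.23. Tbx2 rose by 2.25 ± 0.55 in TKO EB and Tbx18 by 3.80 ± 0.90 in WT EB. Tbx20, Tbx18, Tbx5, Foxf2 and Meox2 also stand on the lateral or paraxial list. In the comparisons between genotypes 0 genes of any of these lists passed.

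**Figure D4:**
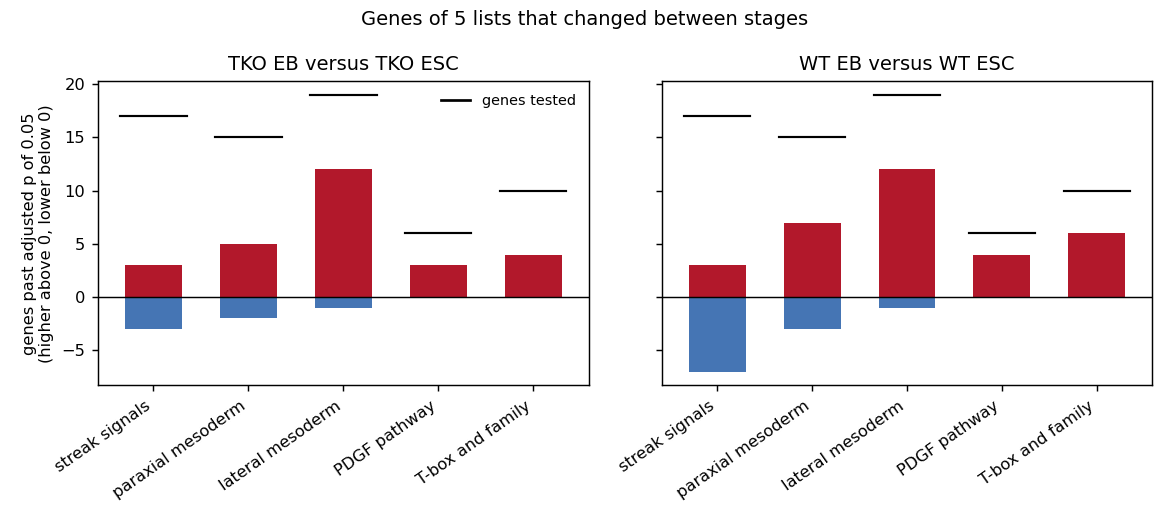
Number of genes that passed an adjusted p of 0.05, higher (above 0) or lower (below 0) in EB, for 5 gene lists in TKO EB versus TKO ESC and WT EB versus WT ESC, with the black line at the number tested. Lateral mesoderm genes have 12 higher and 1 lower of 19 in each genotype. Of all genes 20.8% were higher in TKO EB and 26.2% in WT EB.

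Some markers of other cell types that EB can hold also rose, beside 20.8% of all genes in TKO EB and 26.2% in WT EB. The counts of 2 of 8 neural markers in WT EB and 2 of 8 trophoblast markers in TKO EB lie near these shares. Of 12 fibroblast markers 10 rose and 0 fell in each genotype, with medians of 5.70 in TKO and 6.23 in WT cells, led by Col3a1 and Postn. Of 9 cardiac markers 4 rose in TKO and 5 in WT EB, and their summed intensity ran from 929 to 52773 in TKO EB and from 7613 to 40668 in WT EB. Of 6 macrophage markers 4 rose in TKO and 5 in WT EB (medians 2.90 and 4.91), of 7 tested endothelial markers 2 and 4, and of 8 tested neural markers 3 and 2, with 0 falling in each. Of 2 tested oligodendrocyte precursor markers, another cell type known for Pdgfra, 0 passed. One of the tested markers, Olig1, had 1980 in TKO ESC 7-4-1, against 36.8 to 76.6 on the other ESC arrays. The summed intensity of the 5 listed markers was 2508 on that array, against 228 to 352 on the other ESC arrays. In EB the sum was 204 to 785 in TKO and 206 to 563 in WT. Whether such cells add to the Pdgfra level of TKO ESC 7-4-1 was not tested. Of 12 pluripotency markers 6 fell in TKO EB and 11 in WT EB, beside 14.9% and 17.4% of all genes. Of 8 tested trophoblast markers, which share Hand1 and Cdx2 with the mesoderm lists, 2 rose in TKO EB, and 3 rose and 2 fell in WT EB. The lateral list also shares Tcf21 with the fibroblast, Nkx2-5 with the cardiac and Kdr with the endothelial markers. The part of each in the rise of Foxf1 and Pdgfra was not tested.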

How the data were processed

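Per the labels' protocols, Trizol was used for total RNA, and labelling followed Affymetrix. The deposited table holds linear intensity, summarised by the authors to probe sets, from 0.596 to 25702; background correction, scaling and summarisation by the authors are not given in the sources used here. They were used as deposited, since array medians differed by 0.374 (log2), under a limit of 0.5. Values under 32 were raised to 32 before log2. Of the probe sets, 34958 had a single gene symbol, 932 several and 9211 none, and 34754 matched a RefSeq table (GRCm38.p6) by Entrez identifier. The probe set with the highest mean log2 intensity stood for its gene, and every probe set of a member is also given.

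The model, run in limma 3.58.1 (R 4.3.3), had 1 mean for each of the 4 groups and moderated the spread with a trend (lmFit, eBayes), so every adjusted p of a gene is limma's and shares 1 spread over all groups. The procedure was tested on simulated data. The members and gene lists were chosen with earlier results of these data known. All members are named, and from each other list up to 4 genes with the smallest adjusted p in a comparison; Gata6 and Hand2 array values were picked after values were seen. The line names mark the same cell line at both stages, and so pair those arrays; their deviations from the group means correlated at 0.0664 (7-4-1), 0.196 (Dutch), 0.0903 (Ta1-12), -0.046 (B21), -0.0776 (J1) and -0.0369 (R1). Alternatives covered scaling, floor, filter, probe sets, weights, line as block and leaving out arrays. Scan dates were not analysed here. The number of arrays limits the precision.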

Additional observations from a re-analysis of the deposited data

Results flagged for a closer look

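Within the 5 TKO EB arrays, 2 of 13 probe sets of the members had 1 array far from the others by Dixon's 95% limit, which chance exceeds in about 1 group in 20. The first was Eomes by probe set 1435172_at, with 405.6 in TKO EB 14-14-4, against 181.4 to 222.3 in the other TKO EB and 182.4 to 231.2 in WT EB. The second Eomes probe set gave 234.5 for the same array, within the range of 62.1 to 286.8 of the TKO EB. The second was Foxf1 by probe set 1423013_at, with 86.8 in TKO EB Dutch, against 142.3 to 172.3 in the other TKO EB. By probe set 1434939_at this array was also the lowest EB for Foxf1, at 59.9.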

How the results depend on the processing

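Foxf1 and Pdgfra were called in both stage comparisons under each alternative run, with log2 changes of 1.86 to 3.78 and 3.18 to 6.01 in TKO cells and 2.48 to 4.30 and 4.63 to 7.15 in WT cells, lowest with the mean over probe sets. No member was called between genotypes or for the difference of the changes under any alternative run. With the line as a replicate block, 2 members passed in each stage comparison (Foxf1 3.21 and 4.00, Pdgfra 5.12 and 6.83 in TKO and WT), and the block changed no call. Mixl1 alone gained a call, in WT EB versus WT ESC, with the floor of 64 and with array weights, which made 3 members. Single values were followed for every tested member between stages. Between genotypes and for the difference of the changes they were followed for Mixl1, Foxf1 and Pdgfra only, so signs of the others were not checked there. Of 641 values of single members under alternatives, 611 kept their direction and side of the threshold, 4 uncalled values became exactly 0 (Foxf1 in TKO ESC versus WT ESC and Evx1 in WT EB versus WT ESC with the floor of 64, Foxf1 in TKO ESC versus WT ESC without WT ESC J1, Meox1 in WT EB versus WT ESC without WT EB J1), 2 passed it newly and 24 changed sign, none of them a called value; the cause was not tested.

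Among Mixl1, Foxf1 and Pdgfra, the members followed in TKO EB versus WT EB, the sign changes were those of Mixl1. Mixl1 had 0.0426 after quantile normalization, 0.0711 after median centring, 0.121 with the floor of 64 and 0.12 with array weights. It had 0.16 without line Ta1-12 and -0.226 to 0.16 leaving out 1 array. In TKO EB versus TKO ESC, Mixl1 had 0.0735 with the floor of 64 and 0.086 without line Ta1-12. Eomes there had -0.0823 after quantile normalization, -0.0339 after median centring, -0.13 with the mean over probe sets, -0.0839 with the replicate block, -0.0119 without line Ta1-12, -0.145 without TKO EB Dutch and 14-14-4, and -0.104 to 0.243 leaving out 1 array. Evx1 had 0.281 with the floor of 16, 0.653 without line Ta1-12 and -0.707 to 0.522 leaving out 1 array, and in WT EB versus WT ESC -0.254 to 0.02. In TKO ESC versus WT ESC, Foxf1 had 0.00753 with the mean over probe sets and Pdgfra -0.463 to 0.862 leaving out 1 array. Quantile normalization moved the median of all genes from 0.08 to -0.04 in TKO EB versus TKO ESC, from 0.13 to -0.07 in WT EB versus WT ESC and from -0.10 to 0.00 in TKO EB versus WT EB. Members near the floor of 32 (Evx1, Msgn1, Meox1) carry little signal over background, and the floor can shrink or turn their changes, as for Evx1.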
